A study of Mus musculus with 6 samples.

Results

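Albumin and 8 other abundant carrier proteins of plasma were followed as transcripts in the livers of LKB1 knockout and wild-type (WT) mice. The members were the rows of the deposited gene table whose symbol was Alb, Gc, Afm, Ttr, Rbp4, Ahsg, Fetub, Ambp or Serpina6, which gave 9 of the 55450 genes in the table, and all 9 passed the filter on low counts that kept 14539 genes. The libraries were made from poly(A) RNA of the left liver lobe, with 1 library per mouse and 3 mice per group. The KO group carried floxed alleles of LKB1, the kinase encoded by Stk11, and the WT group carried normal alleles. Both groups are labelled C57BL/J, both received AAV8 Cre at 6 weeks of age, and liver was collected 4 weeks after the injection, at 10 weeks of age. AAV8 is an adeno-associated virus that transduces mainly hepatocytes, and Cre removes DNA between loxP sites. The promoter that drove Cre is not given in the sources used here, and no group without Cre was analysed here. The question put to these genes was whether the transcripts of the main secreted carriers differed between KO and WT liver.

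Hepatocytes secrete most of the protein of blood plasma, and carrier proteins hold poorly soluble hormones, vitamins, fatty acids and metals in the circulation. Albumin binds fatty acids, bilirubin and many drugs and maintains oncotic pressure. Its gene family also includes the vitamin D-binding protein (Gc) and afamin (Afm), a vitamin E-binding glycoprotein. Transthyretin (Ttr) carries thyroxine and forms a complex with retinol-binding protein (Rbp4), the carrier of vitamin A. Fetuin-A (Ahsg) and fetuin-B (Fetub) are cystatin-related glycoproteins, of which the first keeps calcium phosphate from precipitating and the second inhibits a protease that hardens the egg coat. Ambp encodes a precursor that is cleaved into alpha-1-microglobulin, a heme-binding lipocalin, and bikunin, a protease inhibitor. Serpina6 encodes corticosteroid-binding globulin.

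In the mouse genome build GRCm38, Gc (89417522 to 89457898, minus strand), Alb (90460897 to 90476602, plus strand) and Afm (90518932 to 90553543, plus strand) lie on chromosome 5. The gap between Gc and Alb is 1003 kb, and that between Alb and Afm is 42.3 kb and holds Afp, the gene of alpha-fetoprotein. The fetuin genes Ahsg and Fetub lie side by side on chromosome 16. C/EBP factors are known to act on albumin and other liver promoters, and Cebpa is among the genes measured below, so the promoters of 2 pairs of related members are shown, Alb with Afm and Ahsg with Fetub. The sequences are from RefSeq (GRCm38.p6) and run 5′ to 3′ on the strand of the gene, from 150 bases before the annotated start of transcription to 50 bases after it. Capitals mark matches to the C/EBP motif TTGCNNAA and to the TATA box TATAAA, each searched without mismatches on both strands.

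Alb (chr5:90460720-90460919, plus strand): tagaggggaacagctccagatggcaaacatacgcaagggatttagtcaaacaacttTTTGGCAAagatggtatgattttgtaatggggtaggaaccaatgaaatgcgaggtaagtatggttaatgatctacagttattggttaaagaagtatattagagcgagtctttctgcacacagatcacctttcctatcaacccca

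Afm (chr5:90518799-90518998, plus strand): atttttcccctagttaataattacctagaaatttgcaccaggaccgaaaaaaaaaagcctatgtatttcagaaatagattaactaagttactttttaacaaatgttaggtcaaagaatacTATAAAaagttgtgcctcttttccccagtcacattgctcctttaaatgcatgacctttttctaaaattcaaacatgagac

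Ahsg (chr16:22891865-22892064, plus strand): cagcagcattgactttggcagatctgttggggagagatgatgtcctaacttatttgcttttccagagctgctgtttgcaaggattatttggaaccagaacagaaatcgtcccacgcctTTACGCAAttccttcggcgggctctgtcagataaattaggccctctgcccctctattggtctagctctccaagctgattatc

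Fetub (chr16:22918232-22918431, plus strand): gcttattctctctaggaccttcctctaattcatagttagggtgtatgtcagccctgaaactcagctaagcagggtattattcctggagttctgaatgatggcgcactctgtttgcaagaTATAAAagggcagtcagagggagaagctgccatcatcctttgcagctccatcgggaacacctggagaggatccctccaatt

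RefSeq windows of 250 bases before to 50 after the start were found for 7 of the 9 members, with 2 windows each for Rbp4 and Fetub and thus 9 windows. The C/EBP motif was in 3 of the 9 windows, those of Alb and Ahsg and 1 of Rbp4, and in 10.8% of all 32851 promoter windows. It lay 94 to 87 bases before the RefSeq start in Alb and 32 to 25 bases before it in Ahsg, on the opposite strand in both. The gene positions in the text come from GENCODE, whose starts need not equal those of RefSeq. The printed stretch of Ahsg, 22891865 to 22892064, lies wholly inside its GENCODE span of 22891277 to 22899449. The TATAAA box was in 3 of the 9 windows, that of Afm and 1 each of Fetub and Rbp4, against 13.6% of all windows, and began 30 bases before the start in Afm and 31 in Fetub. The FOXA motif TGTTTAC was in 2 of the 9 windows against 3.65% of all, and the HNF4 motif CAAAGTCCA in 0 of 9 against 0.475%. These matches describe letters in a window and were not tested for binding.

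Total counts ran from 47659122 to 56147667 per library. As a check of the labels, Stk11 was at 22.2, 14.4 and 11.4 CPM in KO 1 to 3 and at 66.1, 64.2 and 69.7 CPM in WT 1 to 3 (adjusted p = 0.0167, edgeR quasi-likelihood test), where CPM are counts per 1000000 of a library size adjusted by TMM, the trimmed mean of M-values. KO 1 and WT 1 had 42472 and 29243 counts of Xist and at most 6 counts over 4 Y-linked genes, whereas the other 4 libraries had at most 16 counts of Xist and at least 6146 of the Y-linked genes. Results are therefore also given for KO 2 and 3 against WT 2 and 3, and for KO 1 against WT 1, which has 1 library on each side and no replicate check. Hepatocyte markers were present in all libraries, with all 12 listed genes tested and a summed level of 28640 to 48410 CPM in KO and 33450 to 36280 CPM in WT.

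The 9 genes together held 7.23%, 2.63% and 3.04% of all counts in KO 1 to 3 and 12.5%, 8.78% and 7.67% in WT 1 to 3. Every KO library lay below every WT library, though KO 1 came close to WT 3. The mean share was 4.30% ± 2.55 in KO and 9.66% ± 2.53 in WT (SD, n = 3 each), a difference of -5.35 percentage points. Albumin made up 87.3% of that difference. Mitochondrially encoded transcripts held 7.69%, 8.55% and 10.2% of counts in KO 1 to 3 and 6.14%, 6.82% and 6.95% in WT, higher in every KO library. The share was also taken of a total without these transcripts and those of major urinary protein genes. It was then 7.88%, 2.89% and 3.4% in KO 1 to 3 and 13.4%, 9.81% and 8.68% in WT 1 to 3. The difference of means was then -5.91 percentage points. The part of the mitochondrial transcripts alone was not tested. The other 8 genes held 1.99%, 1.5% and 1.42% in KO against 2.75%, 2.12% and 2.07% in WT. Within the counts of the 9 genes, Alb took 72.6%, 42.8% and 53.4% in KO 1 to 3 and between 73.0% and 78.0% in WT.

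**Figure D1:**
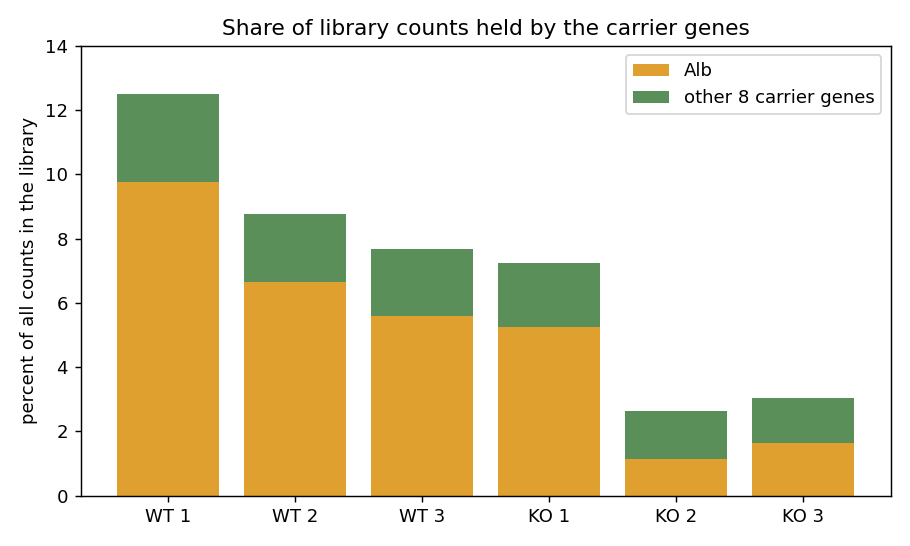
Percent of all counts in each library (y axis, from 0) that fell on Alb and on the other 8 carrier genes, with 1 stacked bar per mouse. The summed share was 7.67% to 12.5% in the WT libraries, 7.23% in KO 1, and 2.63% and 3.04% in KO 2 and 3.

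A negative fitted log2 fold change was found for 8 members and a positive one for 1, Serpina6. The median over the 9 was -0.75, beside 0.010 over all 14539 genes tested. By edgeR's quasi-likelihood test 0 of the 9 members passed an adjusted p-value of 0.05, where 3.37% of all genes tested did. An unadjusted p-value under 0.05 was found for 3 members, Afm, Ttr and Fetub, all lower in KO, against 11.7% of all genes that were lower at that level. Also with limma voom 0 members passed, whereas DESeq2 called 4 as lower (Alb, Ttr, Ahsg and Fetub), with 7.01% of all genes called in that direction. The KO and WT libraries did not overlap for 6 members (Alb, Gc, Ttr, Ahsg, Fetub and Ambp), all lower in KO, which is 66.7% of the members beside 15.5% of all genes. In the 4 libraries without Xist counts, edgeR called 4 members as lower (Alb, Afm, Ttr and Fetub) and 0 as higher, where 16.1% of all genes were called as lower and 17.2% as higher. Without KO 1, with all 3 WT libraries kept, 5 members were called as lower (the same 4 and Ahsg), beside 14.2% of all genes. With the Xist state as a term in the fit of 6 libraries, 3 were (Afm, Ttr and Fetub), beside 4.99% of all genes.

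**Figure D2:**
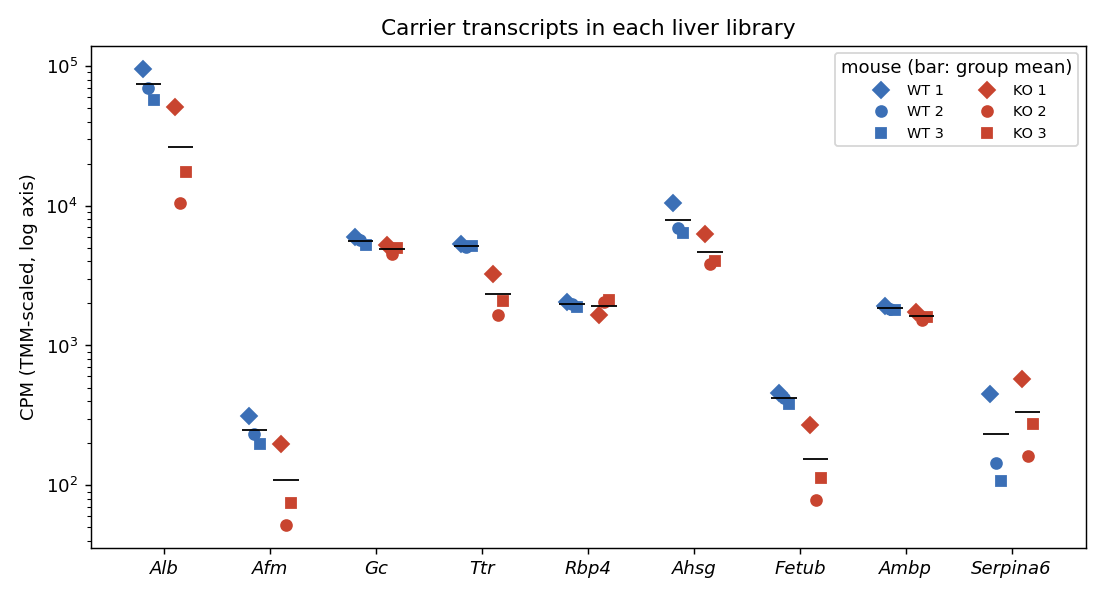
TMM-scaled CPM of each carrier transcript (y axis, log scale) in the 3 WT libraries (blue) and the 3 KO libraries (red), with a diamond for replicate 1, a circle for 2, a square for 3 and a bar for the group mean. Alb, Afm, Ttr and Fetub lie lowest in KO 2 and 3, with KO 1 between them and WT for Alb, Ttr and Fetub and level with WT 3 for Afm, while the points of Gc, Rbp4 and Ambp lie close together in all 6 libraries.

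Albumin transcript was at 50550, 10390 and 17530 CPM in KO 1 to 3 and at 95630, 69980 and 57060 CPM in WT 1 to 3. KO 2 and KO 3 were far below all WT libraries, while KO 1 was only just below WT 3. The means were 26160 ± 21420 CPM in KO and 74220 ± 19630 CPM in WT (SD, n = 3 each), a log2 fold change of -1.51 ± 0.635 (SE; edgeR adjusted p = 0.19) with a 95% interval from -3.01 to 0.00032. Alb was the gene with the most counts in all 3 WT libraries and in KO 1, but had rank 5 in KO 2 and rank 3 in KO 3, behind the mitochondrial transcript mt-Co1 in both. In the libraries without Xist counts it fell by 2.19 on the log2 scale (SE 0.457, edgeR adjusted p = 0.0186), so that KO 2 and 3 averaged 21.98% of WT 2 and 3. In the pair with Xist counts, KO 1 stood at 52.9% of WT 1.

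Afamin, the other family member that lies beside Afp, had the lowest mean WT level per length of the 9 members. Its transcript was at 197.9, 52.0 and 74.3 CPM in KO 1 to 3 and 310.9, 233.8 and 197.0 CPM in WT 1 to 3, so KO 1 overlapped with WT 3. Its log2 fold change was -1.19 ± 0.494 (SE; edgeR adjusted p = 0.185) over the 6 libraries. In the 4 libraries without Xist counts it fell by 1.78 on the log2 scale (SE 0.212, edgeR adjusted p = 0.00379). The ratio of Alb to Afm counts was 255, 200 and 236 in KO 1 to 3 and 308, 299 and 290 in WT, lower in every KO library.

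The values of the vitamin D-binding protein lay closer together. Gc was at 5201, 4542 and 5017 CPM in KO 1 to 3 and at 5994, 5684 and 5229 CPM in WT 1 to 3. The groups just failed to overlap, with KO 1 and WT 3 nearly level. The log2 fold change was -0.20 ± 0.217 (SE; edgeR adjusted p = 0.594), with a 95% interval from -0.71 to 0.318, and it was -0.20 both in the 4 libraries without Xist counts and in the pair with them. The ratio of Alb to Gc counts, which needs no scaling between libraries, was 9.72, 2.29 and 3.49 in KO 1 to 3 and 16.0, 12.3 and 10.9 in WT. The albumin transcript was thus lower relative to Gc in each KO library than in any WT library. Afp, between Alb and Afm, was at most 1.37 CPM in any library (log2 fold change 0.011 ± 0.395, edgeR adjusted p = 0.989).

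Transthyretin and retinol-binding protein circulate as a complex, and their transcripts are given side by side. Ttr (chromosome 18, 20665280 to 20674321, plus strand) was at 3261, 1656 and 2089 CPM in KO 1 to 3 and at 5348, 5058 and 5151 CPM in WT. The WT libraries were nearly identical and all 3 KO libraries lay well below them, KO 1 the least. The means were 2335 ± 830.2 and 5186 ± 148.5 CPM (SD, n = 3 each), a log2 fold change of -1.15 ± 0.3 (SE; 95% interval -1.86 to -0.44). This was the smallest p-value among the members (unadjusted p = 0.00655 in edgeR), yet the adjusted p of 0.0775 missed the threshold. In the libraries without Xist counts Ttr fell by 1.45 on the log2 scale (SE 0.247, edgeR adjusted p = 0.0102), to 36.7% of WT 2 and 3, and KO 1 was at 61.0% of WT 1.

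Rbp4 (chromosome 19, 38116629 to 38125281, minus strand) was at 1645, 2031 and 2107 CPM in KO 1 to 3 and at 2036, 1978 and 1900 CPM in WT. KO 1 was the lowest of the 6 libraries and KO 3 the highest. The log2 fold change was -0.032 ± 0.199 (SE; edgeR adjusted p = 0.932), with a 95% interval from -0.503 to 0.438, and its sign was positive when libraries were scaled by total counts alone or when KO 1 was left out. The count ratio of Ttr to Rbp4 was 2.63, 2.56 and 2.71 in WT 1 to 3 and 1.98, 0.815 and 0.992 in KO, below every WT value. In KO 2 and KO 3 the Rbp4 transcript thus had more counts than that of Ttr. The retinol transporter gene Stra6l was at 173.9 to 233.9 CPM in KO and 196.1 to 214.1 CPM in WT, while Stra6 had no counts in any library. Both were chosen for their tie to Rbp4.

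**Figure D3:**
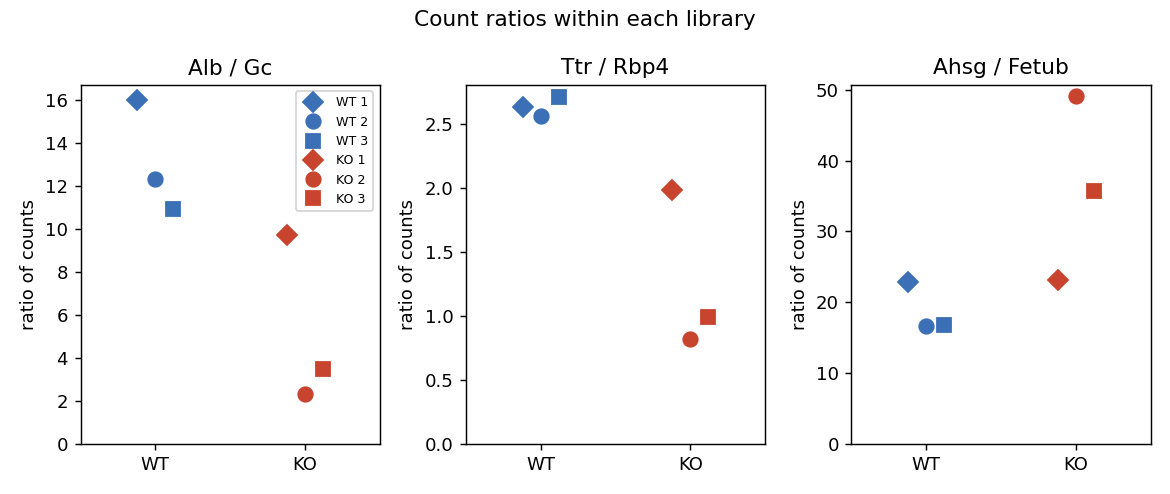
Ratios of counts within each library (y axes, from 0) for Alb to Gc, Ttr to Rbp4 and Ahsg to Fetub, by group and mouse. The first 2 ratios are lower in every KO library than in every WT library, whereas Ahsg to Fetub is 16.7 to 22.9 in WT and 23.1 to 49.1 in KO.

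The 2 fetuin genes lie 18.9 kb apart on chromosome 16, Ahsg from 22891277 to 22899449 and Fetub from 22918334 to 22939778, both on the plus strand. Ahsg was at 6243, 3817 and 4044 CPM in KO 1 to 3 and at 10430, 6975 and 6365 CPM in WT 1 to 3. WT 1 was the highest, and KO 1 lay just below WT 3. The log2 fold change was -0.75 ± 0.325 (SE; edgeR adjusted p = 0.198), with -0.77 in the libraries without Xist counts (adjusted p = 0.0607) and -0.74 in the pair with them. The antisense gene Gm30505 overlaps Ahsg over 3110 bases, but had at most 1.66 CPM in any library.

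Fetub was at 270.2, 77.8 and 113.2 CPM in KO 1 to 3 and at 455.2, 418.5 and 378.6 CPM in WT 1 to 3. All KO libraries lay below all WT libraries, with KO 1 the nearest. The log2 fold change was -1.44 ± 0.446 (SE; edgeR adjusted p = 0.108; 95% interval -2.50 to -0.385). In the libraries without Xist counts Fetub fell by 2.07 on the log2 scale (SE 0.22, edgeR adjusted p = 0.0027). The ratio of Ahsg to Fetub counts was 23.1, 49.1 and 35.7 in KO 1 to 3 and 22.9, 16.7 and 16.8 in WT, so the ratio of the pair with Xist counts was alike in KO and WT. The next genes along the same cluster, chosen for their position, were Hrg, encoding histidine-rich glycoprotein, and the kininogen genes Kng1 and Kng2. Their log2 fold changes over the 6 libraries were -0.84, -0.83 and 0.46, with edgeR adjusted p-values of 0.234, 0.18 and 0.305. In the 4 libraries without Xist counts they were -1.32, -1.125 and 0.85 (edgeR adjusted p = 0.0355, 0.0164 and 0.0167).

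Ambp (chromosome 4, 63143275 to 63154799, minus strand) was at 1732, 1529 and 1589 CPM in KO 1 to 3 and at 1916, 1823 and 1795 CPM in WT 1 to 3. The groups did not overlap, but the KO mean was still 87.6% of the WT mean. The log2 fold change was -0.19 ± 0.181 (SE; edgeR adjusted p = 0.535), with a 95% interval from -0.621 to 0.239. Bikunin, 1 of the 2 Ambp products, is joined to heavy chains encoded by Itih genes. Among them Itih2 rose from 1466, 1047 and 943.3 CPM in WT 1 to 3 to 2474, 3076 and 3784 CPM in KO 1 to 3, a log2 fold change of 1.43 ± 0.275 (SE; edgeR adjusted p = 0.0455). Itih1, Itih3 and Itih4, given as further genes of the same family, had log2 fold changes of 0.10, 0.047 and -0.067 and edgeR adjusted p-values of 0.751, 0.888 and 0.896.

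Serpina6 (chromosome 12, 103646630 to 103657212, minus strand) was the member with a positive fitted change. It was at 571.6, 162.0 and 276.3 CPM in KO 1 to 3 and at 447.1, 145.0 and 107.4 CPM in WT 1 to 3. The libraries with Xist counts were the highest of each group, and the groups overlapped. The log2 fold change was 0.53 ± 0.648 (SE; edgeR adjusted p = 0.632), with a wide 95% interval from -1.01 to 2.07. It was 0.79 ± 0.291 (SE; adjusted p = 0.0882) in the libraries without Xist counts and 0.35 in the pair with them. KO was above WT within both subsets, but without KO 1 and with all 3 WT libraries the value was -0.098.

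Other genes of the serpin A cluster on chromosome 12 varied in their values. Serpina10, Serpina1b, Serpina1d, Serpina1a and Serpina1c, given for their position closer to Serpina6, had log2 fold changes of -0.35, 0.29, 0.46, 0.026 and -0.64. Their edgeR adjusted p-values were 0.243, 0.498, 0.284, 0.95 and 0.261. The 4 genes that follow lie farther from Serpina6 and had the smallest adjusted p in the cluster list. Serpina1e, a gene of the alpha-1-antitrypsin family whose near-identical copies make the division of reads uncertain, was at 168.1, 50.3 and 34.8 CPM in KO 1 to 3 and at 89.2, 9794 and 11450 CPM in WT 1 to 3 (log2 fold change -6.40, edgeR adjusted p = 0.0784). Serpina4-ps1 and Serpina9 were called as lower (edgeR adjusted p = 0.0431 and 0.0482). The first was at 0.309 CPM in KO 1, at 0 in KO 2 and 3 and at 3.17, 28.6 and 57.6 CPM in WT 1 to 3, and the second at no more than 0.054 CPM in KO and at 0.217, 1.14 and 1.88 CPM in WT. A level of 3 counts is 0.0515, 0.054 and 0.0637 CPM in KO 1 to 3, so Serpina9 was at the counting floor in every KO library. Serpina11 was lower in every KO library, at 6.75 to 32.95 CPM against 63.5 to 69.7 CPM in WT (edgeR adjusted p = 0.091). Of the listed genes of the albumin, fetuin and serpin A clusters, members included, 25 of 32 were tested. Over the 6 libraries 0 were called as higher and 2 as lower, beside 313 and 177 of all 14539 genes. In the 4 libraries without Xist counts 1 was called as higher and 12 as lower, beside 17.2% and 16.1% of all genes. The members Alb, Afm and Fetub are among these 12.

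**Figure D4:**
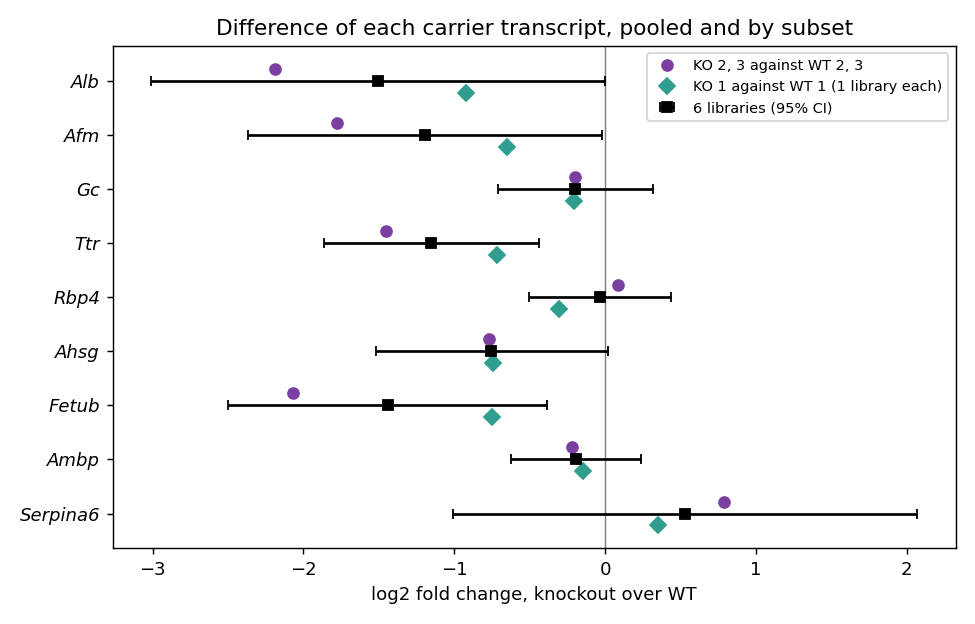
Log2 fold change of KO over WT (x axis) for each carrier transcript, from the edgeR fit on 6 libraries (black square, 95% interval), from KO 2 and 3 against WT 2 and 3 (purple circle) and as the ratio of KO 1 to WT 1 (green diamond). Alb, Afm, Ttr and Fetub lie farther below 0 in the purple circles than in the green diamonds, and Gc, Ahsg and Ambp lie at nearly the same place in both.

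The libraries within a group were not alike. In 8 of 9 members KO 1 was above both KO 2 and KO 3, the exception being Rbp4, beside 40.7% of all genes tested. In all 9 members WT 1 was above WT 2 and WT 3, beside 41% of all genes. KO 1 was below WT 1 for 8 of 9 members, beside 52.1% of all genes, and KO 2 and KO 3 both lay below WT 2 and WT 3 for 7 of 9, beside 35.4%. The KO to WT difference was tested for a dependence on the Xist state through an interaction term in edgeR, in which the spread comes only from the 4 libraries without Xist counts. The adjusted p-values of the 9 members ran from 0.145 to 0.99, so 0 passed, where 2.9% of all genes did. Unadjusted p-values under 0.05 were found for 2 of 9, Afm (0.0235) and Fetub (0.0142), beside 20.9% of all genes. The residual Stk11 level was also highest in KO 1 among the KO libraries. Its part in these differences was not tested.

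Levels of different genes were compared per length, as counts per kilobase of exon scaled to a sum of 1000000 per library. In WT the order was Alb (70760 ± 23260), Ttr (9676 ± 900.1), Ahsg (8065 ± 2787), Gc (6766 ± 844), Rbp4 (3249 ± 304.9), Ambp (2898 ± 284.6), Fetub (471.7 ± 70.7), Serpina6 (302.4 ± 260.7) and Afm (181.5 ± 54.4; SD, n = 3 each). The ranges of the libraries overlapped for the neighbours Ttr and Ahsg, Ahsg and Gc, Rbp4 and Ambp, Fetub and Serpina6, and Serpina6 and Afm. In KO the order was Alb (25540 ± 22240), Gc (5990 ± 627.6), Ahsg (4847 ± 1643), Ttr (4451 ± 1784), Rbp4 (3212 ± 356), Ambp (2582 ± 327), Serpina6 (433.7 ± 293.7), Fetub (178.6 ± 128.1) and Afm (81.3 ± 63.3). Ttr thus moved from the second place to the fourth, and Alb stayed first with the largest spread. Neighbours in the KO order overlapped in their ranges except for Alb with Gc and Ambp with Serpina6.

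The transcripts nearest in pattern to each member were sought among 1383 other genes with a mean of at least 100 CPM, by the root-mean-square (RMS) difference of centred log2 CPM over the 6 libraries, as a description only. Lipc, encoding hepatic lipase, was nearest to Alb at an RMS difference of 0.095, followed by Fetub and Dpys at 0.214 each. Fetub and Afm were each near the other, at 0.172, and Gc and Ambp were near each other, at 0.043. Atxn7l3b was nearer still to Ambp, at 0.0319. The RMS difference is not scaled for spread, so genes that vary little over the libraries, such as Gc, Ambp and Rbp4, lie near other such genes. Tcp1, encoding a chaperonin subunit, was nearest to Rbp4 (0.0495) and Pctp, encoding a phosphatidylcholine transfer protein, to Ahsg (0.153). The nearest gene to Serpina6 was Prlr, the prolactin receptor gene, at the larger distance of 0.365.

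Factors known to act on hepatocyte promoters were examined in a list of 30, all of which were tested. As higher 1 was called and as lower 0, beside 313 and 177 of all 14539 genes. The list's median log2 fold change was -0.22 over the 6 libraries. In the 4 libraries without Xist counts 3 were called as higher and 8 as lower, beside 17.2% and 16.1% of all genes. The gene called over the 6 libraries was Nfil3, a repressor of the PAR bZIP sites at which Dbp acts. It rose from 26.2, 30.04 and 40.8 CPM in WT 1 to 3 to 64.9, 66.2 and 60.7 CPM in KO 1 to 3 (log2 fold change 0.98, edgeR adjusted p = 0.0417). Hnf4a, encoding a nuclear receptor central to hepatocyte identity, was at 542 to 669.7 CPM in KO and 524.2 to 539 CPM in WT (log2 fold change 0.20, adjusted p = 0.47). Cebpa, encoding C/EBP alpha, was lower in every KO library, at 103.3 to 151.2 CPM against 181.1 to 184.2 CPM in WT, with a log2 fold change of -0.56 that missed the threshold over 6 libraries (adjusted p = 0.107) and passed it in the 4 libraries without Xist counts (-0.74, adjusted p = 0.011). Dbp, a clock-controlled activator first described at the albumin promoter, was at 0.90 to 3.09 CPM in KO and 1.304 to 8.20 CPM in WT (adjusted p = 0.31). Hlf, a related factor, had a log2 fold change of -0.69 (adjusted p = 0.0594) Nr1i2, the pregnane X receptor gene, 0.76 (adjusted p = 0.0541) and Nr2f2, encoding the nuclear receptor COUP-TFII, -0.65 (adjusted p = 0.0663).

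Among 76 other plasma proteins of hepatocytes, all tested, 1 was called as higher (Itih2) and 1 as lower, beside 313 and 177 of all 14539 genes. The gene called as lower was Lrg1, encoding a leucine-rich glycoprotein, at 57.5 to 73.6 CPM in KO and 112.1 to 216.9 CPM in WT (log2 fold change -1.28, edgeR adjusted p = 0.0481). The median of the 76 was -0.24, and the groups did not overlap for 29 lower and 10 higher genes, beside 15.5% and 16.9% of all genes. Apoa1, the main protein of high-density lipoprotein, was at 887.7 to 2690 CPM in KO and 5994 to 7500 CPM in WT (log2 fold change -2.07, adjusted p = 0.0568). Apoa4 had the opposite sign (3.41, adjusted p = 0.0507). In the 4 libraries without Xist counts 30 of these genes were called as lower and 9 as higher, beside 16.1% and 17.2% of all genes.

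Of 45 genes of the secretory pathway, 3 were called as lower and 0 as higher, beside 177 and 313 of all 14539 genes. Their median was -0.18 over the 6 libraries. The groups did not overlap for 23 lower and 3 higher genes, beside 15.5% and 16.9% of all genes. In the 4 libraries without Xist counts 10 were called as lower and 3 as higher, beside 16.1% and 17.2% of all genes. The 3 called as lower over the 6 libraries were Sec24d, Sec23b and Ssr1. Sec24d and Sec23b encode coat proteins of vesicles leaving the endoplasmic reticulum, and Ssr1 a subunit of the complex beside the translocon. Their log2 fold changes were -0.75 for Sec24d, -0.80 for Sec23b and -0.66 for Ssr1 (edgeR adjusted p = 0.0322, 0.0431 and 0.0467). Sec11a, a signal peptidase subunit, had a log2 fold change of -0.57 (adjusted p = 0.0505).

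Genes that handle the cargo of the carriers were taken from a list of 41, of which 34 were tested. Over the 6 libraries 2 were called as higher and 0 as lower, beside 313 and 177 of all 14539 genes. In the 4 libraries without Xist counts 5 were called as higher and 12 as lower, beside 17.2% and 16.1% of all genes. Those called over the 6 libraries were Itih2 and Tat, encoding tyrosine aminotransferase, a classical glucocorticoid-induced enzyme, which rose from 1058 to 1190 CPM in WT to 3005 to 5971 CPM in KO (log2 fold change 1.86, edgeR adjusted p = 0.0344). Nr3c1, the glucocorticoid receptor gene, was at 62.9 to 74.4 CPM in KO and 93.2 to 102.7 CPM in WT (log2 fold change -0.54, adjusted p = 0.0637). Hsd11b1, whose enzyme regenerates active glucocorticoid, was at 93.8 to 317.9 CPM in KO and 427.8 to 643.3 CPM in WT (log2 fold change -1.36, adjusted p = 0.111). Fcgrt, encoding the receptor that recycles albumin, had a log2 fold change of -0.19 (adjusted p = 0.521). Vdr, the vitamin D receptor gene, was at most 0.0515 CPM in any library and did not pass the filter. Slc16a10, a carrier of aromatic amino acids and thyroid hormone, had a log2 fold change of 0.86 (adjusted p = 0.0687).

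Markers of other liver cell types were read beside these results, because in bulk tissue fewer cells of a type and less RNA per cell cannot be told apart. Of 12 hepatocyte markers 3 were called as higher (Tat, Ass1 and Hpd) and 0 as lower, beside 313 and 177 of all 14539 genes. At unadjusted p-values under 0.05 in edgeR 4 were higher and 3 lower, beside 2123 and 1694 of all genes. The 12 endothelial markers summed to 167 to 261.6 CPM in KO and 305.9 to 410.9 CPM in WT, with 0 called by edgeR and 10 of them lower when only the unadjusted p-value was held to 0.05, beside 11.7% of all genes. In the 4 libraries without Xist counts, 4 carriers were called as lower. There edgeR also called as lower 11 of the endothelial markers, 5 of 12 macrophage and 6 of 12 stellate markers, beside 16.1% of all genes. Among the 11 lymphoid markers tested over the 6 libraries, it called 5 as lower there. As higher it called 1 macrophage and 1 lymphoid marker there, beside 17.2% of all genes. Of the 12 hepatocyte markers it called 3 as lower and 3 as higher there. Of the biliary markers it called 1 as lower and 1 as higher, and of the 3 neutrophil markers tested 0 and 1. The macrophage markers (12) summed to 163.6 to 367.7 CPM in KO and 236.5 to 325.7 CPM in WT, the stellate markers (12) to 179.1 to 395.3 and 297.7 to 655.2 CPM, and the biliary markers (10) to 65.7 to 142.2 and 42.7 to 83.9 CPM. The lymphoid markers (12) summed to 5.69 to 12.7 CPM in KO and 10.1 to 12.97 CPM in WT, and the neutrophil markers (10) to 1.17 to 2.35 and 0.868 to 1.22 CPM, with Ly6g at 0 throughout. Over the 6 libraries 1 gene of these other cell types was called, the biliary marker Prom1, which was higher in KO (log2 fold change 4.21, edgeR adjusted p = 0.0442). Prom1 was at 63.5, 39.2 and 68.4 CPM in KO 1 to 3 and at 6.98, 1.08 and 1.13 CPM in WT 1 to 3. It thus made up a large part of the biliary sum in KO. The median log2 fold change of the 10 biliary markers was 0.125. The part of cell composition in the carrier levels was not tested.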

How the data were processed

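The authors deposited 1 table of expected counts per gene for 6 liver libraries, estimated read numbers that need not be whole. Per the submitters' processing notes, bcl2fastq 2.17, cutadapt 1.18, STAR 2.7.0f and RSEM 1.3.1 were used and the build was mm9. All 55450 gene identifiers, with versions, were found in GENCODE M21 (GRCm38), from which positions and exon lengths were taken here, so the build named in the notes and the identifiers differ. The use of strand is not given in the sources used here, and 0 value columns lacked a sample. Expected counts were rounded, and edgeR 4.0.16 in R 4.3.3 was run with filterByExpr, TMM scaling and the quasi-likelihood test with group as the only term, over 14539 genes with Benjamini-Hochberg adjustment and a threshold of 0.05. SE is the log2 fold change over the square root of F, and 95% intervals use the t distribution with the degrees of freedom of the fit. Ratios of KO 1 to WT 1 use an offset of 0.1 CPM. Alternatives used limma 3.58.1, DESeq2 1.42.0, other scalings, no filter, a replicate block, the Xist state and the removal of each library. The script was tested on simulated counts. Replicate numbers come from titles, and the mice are separate animals per the labels' protocols. Exact permutation of 3 against 3 libraries cannot give a p-value below 0.10 and was not used. Lists and members were chosen with earlier results of these data known. Named genes were all members, the top 4 by adjusted p of the lists of other plasma proteins, factors, cargo genes, gene clusters and secretory pathway, 9 genes given whatever their result (Stk11, Afp, Hnf4a, Cebpa, Dbp, Nr3c1, Hsd11b1, Fcgrt and Vdr) and the genes nearest in pattern. Others are said to be chosen where named. No protein sequences were used here, and promoter windows were matched for 7 of 9 members. Some planned results are not reported here.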

Additional observations from a re-analysis of the deposited data

Results flagged for a closer look

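The KO to WT difference was compared between the libraries with and without Xist counts by an interaction term in edgeR, and 0 of the 9 carrier genes passed an adjusted p-value of 0.05 (2 had an unadjusted p-value under 0.05). Among the other named genes, 2 genes of the serpin A cluster passed. For Serpina1e the log2 fold change was -7.97 in the 4 libraries without Xist counts and 0.91 in the pair with them, an interaction of -8.88 (edgeR adjusted p = 0.00508). For Serpina11 the values were -3.02 and -0.94, an interaction of -2.07 (edgeR adjusted p = 0.039). Each estimate rests on 1 KO and 1 WT library with Xist counts, which are assumed to vary like the other 4 libraries, since only those supply a spread.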

How the results depend on the processing

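Over 15 alternatives the fitted direction held for Alb, Gc, Afm, Ttr, Ahsg, Fetub and Ambp in all. Without KO replicate 1 the log2 fold change moved to -2.42 for Alb, -1.98 for Afm and -2.13 for Fetub, and with 1 library left out it ran from -2.42 to -1.11, -1.98 to -0.85 and -2.13 to -1.11 for these, -1.48 to -0.945 for Ttr and -1.02 to -0.508 for Ahsg. Rbp4 turned positive with library size alone (0.0094), in the 4 libraries without Xist counts (0.088) and without KO replicate 1 (0.063), and Serpina6 turned negative without KO replicate 1 (-0.098). With 1 library left out, Rbp4 ran from -0.0998 to 0.063 and Serpina6 from -0.098 to 1.41. The number of members past the threshold, 0 as reported, was 4 with DESeq2, 3 with the Xist state as a term (Afm, Ttr and Fetub, beside 4.99% of all genes called as lower), 4 in the libraries without Xist counts, and 0 to 5 when 1 library was left out. The 5 arose without KO replicate 1 (Alb, Afm, Ttr, Ahsg and Fetub, beside 14.2% of all genes called as lower), and with any other library left out it was 0. The number of all genes past the threshold, 490 as reported (63.9% of them higher), was 2290 with DESeq2 (55.5% higher), 771 with no filter, 1504 with the Xist state as a term (51.8% higher) and 4847 in the libraries without Xist counts (51.7% higher). It was 6 (without WT replicate 2) to 4473 (without KO replicate 1) when 1 library was left out, with 86 without KO replicate 2, 35 without KO replicate 3, 262 without WT replicate 1 and 20 without WT replicate 3. With library size alone 74.4% of the calls were higher. With the replicate block 105 genes and 0 members passed (75.2% of the calls higher). Same-numbered libraries correlated in their deviations at 0.177, 0.0427 and 0.0733, and not every library correlated best with its own number, so the numbers were not taken as pairs. The difference in the members' share of counts, -5.35 percentage points, was -0.679 without Alb. The cause of these shifts was not tested.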
